A study of Mus musculus with 16 samples.

Results

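Rab1b, Yif1a, Pacs1, Klc2 and Usp4, genes of membrane traffic and of ubiquitin removal, were almost without reads in one group of cells and present in the other, and each has a close paralog elsewhere in the genome: Rab1a, Yif1b, Pacs2, Klc1 and Usp15. These 10 genes, of 17655 listed, were taken by their symbols and read as 5 pairs. The first gene of each pair was chosen because it was nearly absent from the empty cells, so its difference between the groups is a description and carries no test. That rule did not use the level of the second gene, which was tested, to ask whether a paralog was higher where its partner was missing. All 10 genes were listed in all 16 samples.

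The cells were mouse precancerous cells of small cell lung cancer (preSC), labelled as lung neuroendocrine cells positive for Chga. All of them were null for Rb1 and Trp53 and heterozygous null for Rbl2. The empty group carried a lentiviral control without an insert and the Wnt5a group a lentivirus for Wnt5a, and doxycycline (1 µg/mL, 48 hours) was added to the cells of either group before RNA was taken. Whether either group was 1 clone is not given in the labels. Poly(A) RNA from 500 ng of total RNA was sequenced for 8 samples per group, but samples 1 to 4 of a group differed by about the sampling noise of their reads, and so did samples 5 to 8. Each set of 4 was therefore averaged as 1 library (A and B), which gives n = 2 libraries per group.

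The libraries held 30220749 and 32592342 reads in the empty group and 35102931 and 35315408 reads in the Wnt5a group. Wnt5a itself stood at 144 and 99.8 in the empty libraries and at 1049 and 1509 in the Wnt5a libraries, in normalised reads. The 8 neuroendocrine markers, summed, lay between 44993 and 49594 in the 4 libraries, against 12.1 to 17.1 for leukocyte markers, 3.52 to 5.79 for endothelial markers and 42.5 to 47.9 for markers of other lung epithelium. Of the 5 fibroblast markers 4 were listed, and their sum was 604 and 353 in the empty libraries and 244 and 248 in the Wnt5a libraries; almost all of it was Dcn (597, 340, 241 and 246), while Col1a2 was at 0 in both empty libraries. The part of the fibroblast markers in the results was not tested.

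Rab1 proteins are small GTPases that recruit tethering factors to membranes between the endoplasmic reticulum and the Golgi. Yif1 proteins are membrane proteins of the same route, Pacs proteins are sorting adaptors of the Golgi and endosomes, and the kinesin light chains couple cargo to the kinesin-1 motor. Usp4 and Usp15 are deubiquitinating enzymes of one family with a shared DUSP domain.

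How well reads can be assigned within such pairs depends on how alike their transcripts are, so the most similar stretch of each pair is shown. Each line is the 50-base coding window, without gaps, with the fewest differences to the paralog, and capitals mark the bases that differ. The sequences come from the GENCODE M21 transcript with the longest coding sequence, and positions count from the A of the start codon. Rab1b positions 292 to 341 are set against Rab1a 301 to 350, Yif1a 625 to 674 against Yif1b 670 to 719, Pacs1 2800 to 2849 against Pacs2 2596 to 2645, Klc2 643 to 692 against Klc1 688 to 737, and Usp4 115 to 164 against Usp15 103 to 152.
Rab1b: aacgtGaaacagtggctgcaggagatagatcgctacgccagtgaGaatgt
Rab1a: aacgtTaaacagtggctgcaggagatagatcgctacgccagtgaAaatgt
Yif1a: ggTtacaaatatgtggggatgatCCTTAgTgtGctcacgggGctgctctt
Yif1b: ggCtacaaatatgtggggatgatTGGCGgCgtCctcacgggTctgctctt
Pacs1: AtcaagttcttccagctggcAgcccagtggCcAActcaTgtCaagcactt
Pacs2: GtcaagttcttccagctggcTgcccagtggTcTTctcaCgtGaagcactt
Klc2: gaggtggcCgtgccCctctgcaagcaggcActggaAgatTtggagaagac
Klc1: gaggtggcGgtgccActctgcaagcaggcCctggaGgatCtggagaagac
Usp4: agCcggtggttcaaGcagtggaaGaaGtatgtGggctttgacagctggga
Usp15: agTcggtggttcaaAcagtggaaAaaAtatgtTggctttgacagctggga
The windows differ at 2 bases for Rab1, 9 for Yif1, 7 for Pacs, 5 for Klc and 5 for Usp4 and Usp15. Over the aligned coding sequences the identity was 77.6%, 69.1%, 69.8%, 74.1% and 67.4% in the same order. No 50-base window of any of the 10 transcripts occurred unchanged in its paralog. Rab1b was the only near-absent gene with windows within 2 mismatches of the paralog, 5 of 554. For Klc2, 87.5% of transcript windows were found in no other gene, and for Yif1b 76.9%; the windows they share are with AC124502.1 and 2200002D01Rik, not with Klc1 or Yif1a.

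Rab1b and Yif1a, neighbours on chromosome 19 with Cnih2 between them, were near absent together, and their promoters are shown as the 250 bases before the start in RefSeq (GRCm38.p6). Rab1b is read from the minus strand at chr19:5106997-5107246 and Yif1a from the plus strand at chr19:5088288-5088537. Capitals mark, on either strand, the letters TATAAA (the TATA box), the letters CCAAT (the CCAAT box) and the letters GGGCGG (the GC box), none of which overlap here.
Rab1b: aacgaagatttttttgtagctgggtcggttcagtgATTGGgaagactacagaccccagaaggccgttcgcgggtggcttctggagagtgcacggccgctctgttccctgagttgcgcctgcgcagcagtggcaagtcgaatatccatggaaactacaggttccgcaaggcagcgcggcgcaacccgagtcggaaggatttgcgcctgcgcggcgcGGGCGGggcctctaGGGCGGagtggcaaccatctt
Yif1a: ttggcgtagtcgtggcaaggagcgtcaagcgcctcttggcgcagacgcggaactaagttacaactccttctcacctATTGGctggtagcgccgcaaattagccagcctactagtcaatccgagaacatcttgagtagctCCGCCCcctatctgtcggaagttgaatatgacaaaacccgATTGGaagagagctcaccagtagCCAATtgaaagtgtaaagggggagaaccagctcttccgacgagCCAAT
The Rab1b window holds GGGCGG at 2 places and CCAAT at 1, and the Yif1a window holds GGGCGG at 1 place and CCAAT at 4. GGGCGG was in the promoters of 9 of the 9 member genes with an entry, against 32.7% of 32851 promoters. CCAAT was in 4 of 9, against 33.8%, and TATAAA in 0 of 9, against 12.4%. The units differ: members count by gene, with a hit in any entry, and the background by entry. Pacs1 and Yif1b had several entries, and 1 of those of Yif1b held 0 GGGCGG. The Rab1b window held 23 CG and the Yif1a window 15, against a median of 6 over all promoters. The part of CG content in the GGGCGG count was not tested. Klc2 had no entry.

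The near-absent members were present in every Wnt5a sample and were at or close to 0 in the empty samples. In bulk samples, fewer cells that express a gene and less RNA per cell cannot be told apart. The groups of samples did not overlap for 5 of these 5 genes, against 12.4% of the 12357 tested genes, a count that the choice of the members fixes. Values are deposited reads divided by a size factor per sample, given as lowest, median and highest of 8 samples and then as mean ± SD over 2 libraries.

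**Figure D1:**
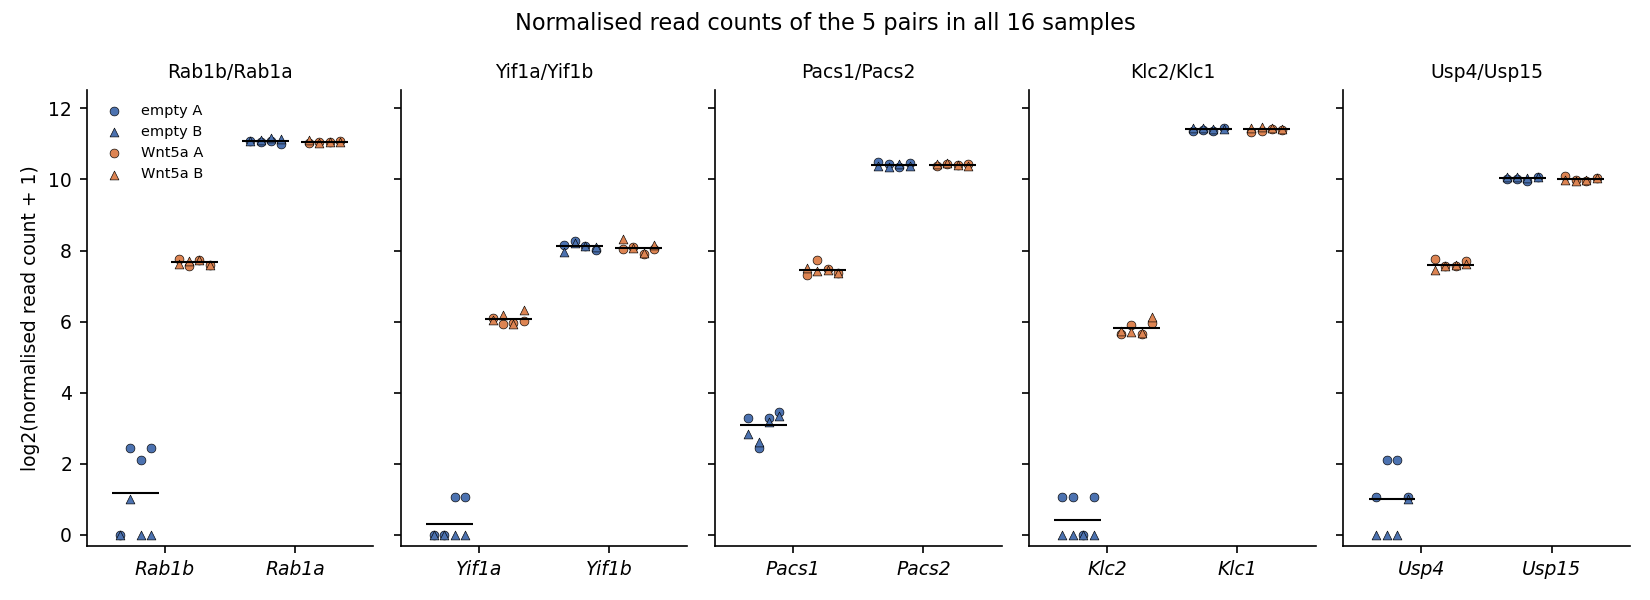
Normalised reads of the 10 genes in each of the 16 samples, as log2(value + 1), with empty in blue and Wnt5a in orange. Circles are library A, triangles are library B, and the bar is the mean over A and B of log2(library mean + 1). The near-absent genes separate the groups completely, with Rab1b at 4.43 or less in the empty samples and 190 or more in the Wnt5a samples. The sample ranges of the groups overlap for each of the 5 paralogs. The library means of Rab1a do not, a separation of 2 from 2 with an exact permutation p of 0.333.

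Rab1b, a GTPase of early secretory traffic, was 0, 0.508 and 4.43 in the empty samples (4 of 8 at 0) and 190, 201 and 218 in the Wnt5a samples. Its library means were 1.64 ± 1.97 and 202 ± 0.910 (SD, n = 2), from 12 reads in the empty libraries together, and the Wnt5a level was 123-fold the empty level (95% Poisson interval 70.3 to 238, counting error only). Against empty library A alone (11 reads) it was 66.5-fold (37.2 to 133), and against B alone (1 read) 794-fold (143 to 31369), so it depends on the library. Rab1a, which recruits the same tethers, was far more abundant and close in the 2 groups. It was 2058, 2176 and 2289 in the empty samples and 2071, 2109 and 2198 in the Wnt5a samples, and the ranges overlapped. Library means of Rab1a were 2181 ± 62.4 and 2121 ± 10.4 (SD, n = 2). Its empty libraries stood at 2137 and 2226 and its Wnt5a libraries at 2114 and 2128, so by library the groups did not overlap. Such a separation of 2 libraries from 2 has an exact permutation p of 0.333, and its share over all tested genes was not counted. The log2 difference, Wnt5a minus empty, was −0.04 (SE 0.0706, 95% interval −0.21 to 0.13, limma, Benjamini-Hochberg adjusted p = 0.860 over all tested genes). The interval allows Rab1a to have been at most 1.16-fold higher in empty cells.

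Yif1a, a Golgi membrane protein that binds Yip1 family members, was 0, 0 and 1.10 in the empty samples (6 of 8 at 0) and 59.8, 64.5 and 79.0 in the Wnt5a samples. Its library means were 0.275 ± 0.389 and 66.2 ± 3.91 (SD, n = 2), and 2 reads in all came from the empty libraries, so the 240.5-fold ratio had a counting interval of 66.6 to 1986. Both reads were in library A, against which alone the ratio was 120.2-fold (33.3 to 993). Yif1b, its paralog, was 248, 277 and 305 in the empty samples and 236, 265 and 323 in the Wnt5a samples. These ranges overlapped, and the library means were 277 ± 6.84 and 269 ± 13.6 (SD, n = 2). The log2 difference was −0.04 (SE 0.0895, 95% interval −0.26 to 0.17, limma, adjusted p = 0.884), and the interval allows at most 1.196-fold more Yif1b in empty cells. By library letter the difference was −0.12 for A and 0.03 for B.

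Pacs1, a sorting adaptor that binds furin and other cargo, kept the most reads of the 5 in empty cells. It was 4.43, 8.45 and 9.93 in the empty samples, with 0 of 8 at 0, and 159, 173 and 210 in the Wnt5a samples. The library means were 7.56 ± 0.609 and 176 ± 4.05 (SD, n = 2), a 23.2-fold ratio (counting interval 17.9 to 30.7, from 57 empty reads). Pacs2, an adaptor that also acts at contacts of the endoplasmic reticulum with mitochondria, was 1299, 1354 and 1426 in the empty samples and 1333, 1368 and 1398 in the Wnt5a samples, where all Wnt5a samples lay within the empty range. Pacs2 library means were 1357 ± 31.0 and 1365 ± 1.42 (SD, n = 2). The log2 difference was 0.0090 (SE 0.0696, 95% interval −0.16 to 0.17, limma, adjusted p = 0.970), which allows at most 1.11-fold more in empty cells.

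Klc2, a kinesin light chain, was 0, 0 and 1.11 in the empty samples (5 of 8 at 0) and 49.5, 52.1 and 69.6 in the Wnt5a samples. Library means were 0.414 ± 0.586 and 55.5 ± 0.761 (SD, n = 2), with 3 reads in the empty libraries and a 134-fold ratio (counting interval 45.8 to 649.5). All 3 reads were in library A, against which alone it was 67.0-fold (22.9 to 325). Klc1, its abundant paralog, was 2632, 2735 and 2768 in the empty samples and 2590, 2729 and 2829 in the Wnt5a samples, with overlapping ranges. Its library means were 2713 ± 50.2 and 2721 ± 92.4 (SD, n = 2). The log2 difference was 0.0039 (SE 0.0728, 95% interval −0.17 to 0.18, limma, adjusted p = 0.986), and at most 1.12-fold more Klc1 in empty cells is allowed. After their values were seen, the other 2 light chains were read too: Klc3 differed by −0.07 (limma, adjusted p = 0.810) and Klc4 by −0.15 (adjusted p = 0.553) on the log2 scale.

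Usp4, which lies on chromosome 9 and not with the other 4, was 0, 1.06 and 3.32 in the empty samples (3 of 8 at 0) and 173, 190 and 218 in the Wnt5a samples. Library means were 1.23 ± 1.38 and 194 ± 9.71 (SD, n = 2), a 157-fold ratio (counting interval 82.9 to 344) from 9 empty reads. Against empty library A alone (8 reads) it was 87.8-fold (44.6 to 203), and against B alone (1 read) 757-fold (136 to 29906). Usp15, its paralog, was 994, 1054 and 1075 in the empty samples and 988, 1019 and 1086 in the Wnt5a samples, again with overlap. Its library means were 1045 ± 24.1 and 1026 ± 11.9 (SD, n = 2). The log2 difference was −0.03 (SE 0.0705, 95% interval −0.19 to 0.14, limma, adjusted p = 0.914), which allows at most 1.14-fold more in empty cells. Usp11, another enzyme of the family read after its values were seen, differed by −0.0068 (limma, adjusted p = 0.984).

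Of the 5 paralogs, 0 were called at an adjusted p under 0.05 by limma, against 254 of 12357 tested genes (2.06%). None of the 5 had an unadjusted limma p under 0.05, against 16.1% of the tested genes, and 0 of 5 were called by edgeR (1.99% of the tested genes) or by DESeq2 (4.35%). With the replicate block (library A paired with A and B with B) the paralogs' adjusted p-values were 0.579 to 0.960, again with 0 of 5 called by limma, against 17.0% of the tested genes. Exact two-sided permutation tests over libraries gave p = 0.333 (Rab1a) to 1, and 0.333 is the smallest that n = 2 against n = 2 allows. Since no label says that the libraries came from separate cultures, the p-values measure the spread between these libraries, which may be technical.

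**Figure D2:**
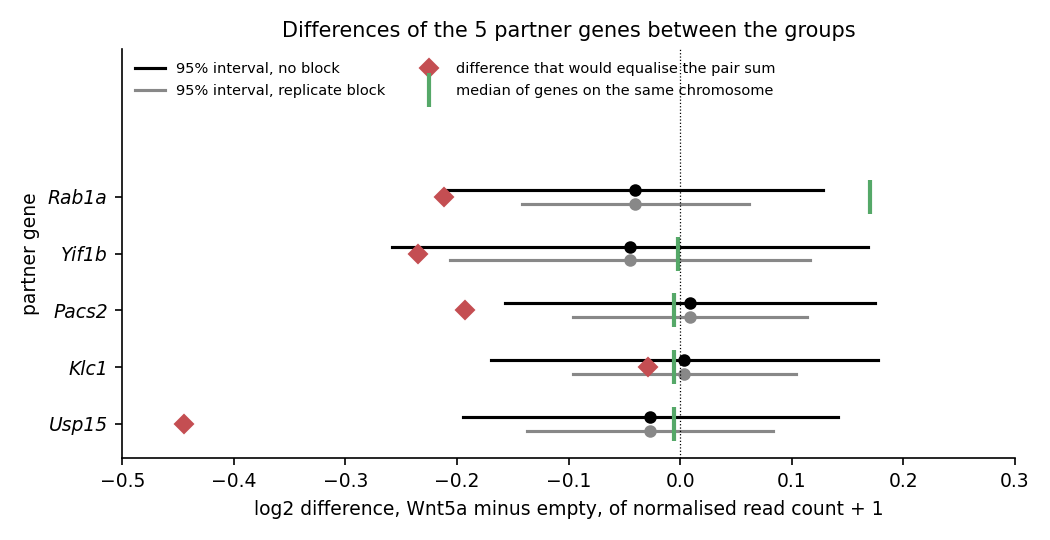
Log2 difference, Wnt5a minus empty, of the 5 paralogs with 95% limma intervals without (black) and with (grey) the replicate block, the difference that would make the pair's sums equal (diamond) and the median of the gene's chromosome (green tick). All 5 intervals cross 0 in both fits, and without the block the diamond falls outside the interval for Rab1a (just), Pacs2 and Usp15 but inside it for Yif1b and Klc1.

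Levels can be compared between genes per kilobase of exon. On that scale (library means, normalised reads per kilobase) Rab1a stood at 558 in Wnt5a cells and Rab1b at 88.8, Yif1b at 197 and Yif1a at 35.03, and Pacs2 at 195 and Pacs1 at 29.1. Klc1 stood at 669 and Klc2 at 13.4, the most unequal of the pairs, and Usp15 at 61.8 and Usp4 at 22.4, the least unequal with exon length. The near-absent gene thus held 13.7 ± 0.111% of the Rab1 level, 15.1 ± 0.108% of Yif1, 13.0 ± 0.272% of Pacs, 1.97 ± 0.0391% of Klc and 26.6 ± 0.753% of Usp4 and Usp15 (SD, n = 2) in Wnt5a cells. These errors do not cover the transcript windows that Klc2 and Yif1b share with other genes, whose part in the shares was not tested. Nor do they cover the choice of length. Without length correction Rab1b held 8.69%, Usp4 15.9% and Yif1a 19.7%, which makes Yif1 the least unequal pair. With the longest transcript Usp4 held 37.3%. With exon length the shares in empty cells were 0.128%, 0.0703%, 0.641%, 0.0152% and 0.229%. In Wnt5a cells the near-absent gene was the less abundant of its pair in 5 of 5 pairs.

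The summed level of a pair was lower in empty cells than in Wnt5a cells for each of the 5 pairs, by about what the near-absent gene held. Rab1a and Rab1b together stood at 575 against 647 per kilobase (88.8% of the Wnt5a level), the Yif1 pair at 204 against 232 (87.6%), and the Pacs pair at 195 against 225 (87.05%). The Klc pair stood at 667 against 682 (97.8%) and the Usp4 and Usp15 pair at 63.1 against 84.3 (74.9%). The 2 libraries of each group did not overlap for 4 of the pairs, and for Klc the empty library B lay above the Wnt5a library A. Sums were formed for these 5 pairs alone, so no share over other genes stands beside this count. Full separation of 2 libraries from 2 has an exact permutation p of 0.333. Because the near-absent genes were chosen on this contrast, these sums are a description.

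**Figure D3:**
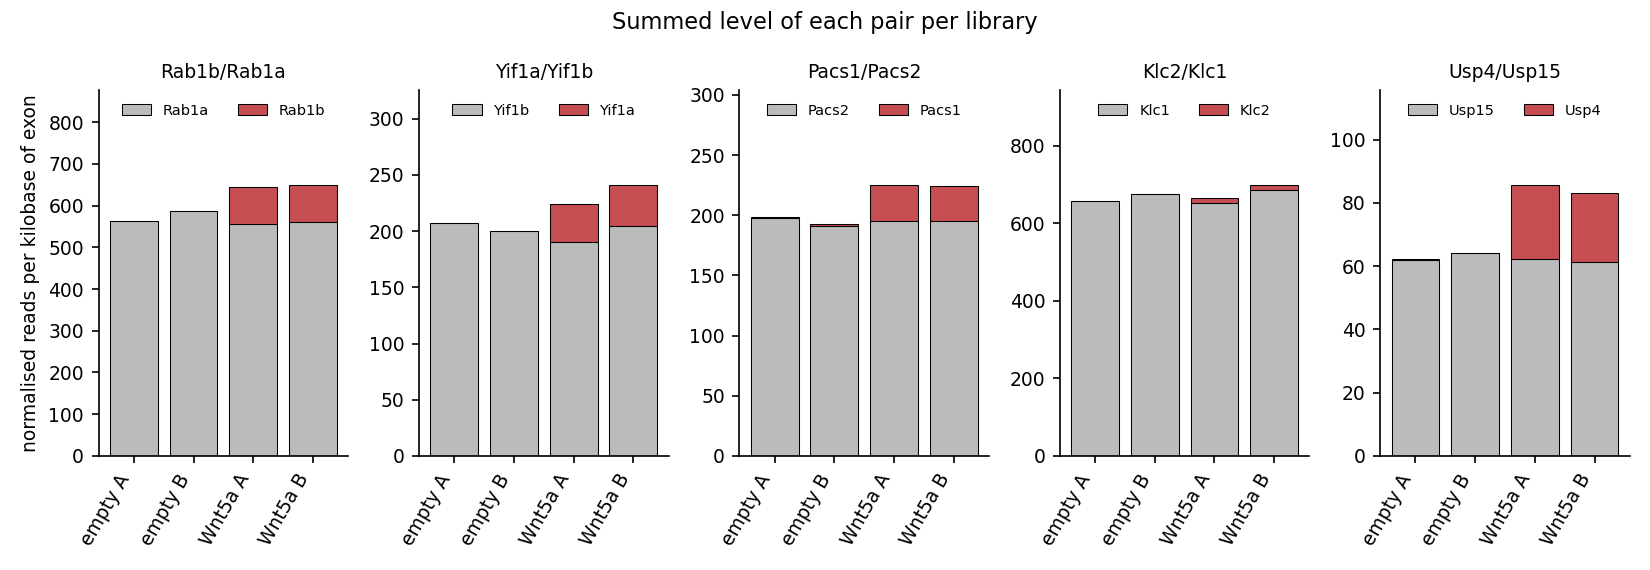
Normalised reads per kilobase of exon in each pair, stacked from the paralog and the near-absent gene, for each of the 4 libraries. The mean sum in empty cells ranges from 74.9% of the Wnt5a sum for Usp4 and Usp15 to 97.8% for Klc1 and Klc2.

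For the sums to be equal, Rab1a would have needed to be 1.16-fold higher in empty than in Wnt5a cells, Yif1b 1.18-fold, Pacs2 1.14-fold, Klc1 1.02-fold and Usp15 1.36-fold. The values needed for Pacs2 and Usp15 lay above what the 95% intervals allow, with each of 3 ways of counting length. For Rab1a it lay just above with exon length (1.158 against 1.156) and not above with the longest transcript (1.14) or without length correction (1.09). For Klc1 the rise needed (1.02 against an upper bound of 1.12) lay inside its interval with each of the 3 lengths, so a full rise cannot be told from none. For Yif1b it lay inside with exon length (1.18 against 1.196) and the longest transcript (1.19), and above without length correction (1.25). With the replicate block the upper bounds were 1.10 for Rab1a, 1.15 for Yif1b, 1.07 for Pacs2, 1.07 for Klc1 and 1.10 for Usp15, which leaves Klc1 as the gene whose needed rise lay inside with exon length. With the block the rise needed by Yif1b lay above the bound with each of the 3 lengths, and that of Rab1a inside it without length correction.

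Rab1a lies on chromosome 11, whose 1020 tested genes had a median log2 difference of 0.17, so Rab1a was lower than its chromosome as a whole. With the median of each chromosome removed, its difference was −0.21 (unadjusted p = 0.0213, limma adjusted p = 0.296). The lowest adjusted p of 85 alternative tests of the paralogs, 0.140, was also for Rab1a, in limma with all 16 samples taken separately and the replicate block, where the difference was −0.04. Yif1b on chromosome 7, Pacs2 and Klc1 on 12 and Usp15 on 10 lie on chromosomes with medians of −0.0020, −0.0055 and −0.0050. Rab1b, Yif1a, Klc2 and Pacs1 lie on chromosome 19, with a median of 0.36 over 412 genes, and Usp4 on chromosome 9, with −0.02.

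The near-absent members lie among neighbours that were near 0 in empty cells too. Each run was extended from a member over listed genes that were much lower in both empty libraries or too low to test. The first gene on either side that was neither is the flank. This rule fixes that genes inside were low and that the flanks were not, but not how many genes a run holds. On chromosome 19 the run between the flanking genes Npas4 and Sf3b2 holds, in order, Slc29a2, B4gat1, Brms1, Rin1, Cd248, Tmem151a, Yif1a, Cnih2, Rab1b, Klc2 and Pacs1. B4gat1, a glycosyltransferase, had 1 and 0 reads in the empty libraries and 167 and 168 in the Wnt5a libraries, and Brms1, a corepressor subunit, had 0 and 0 against 146 and 119. Slc29a2, Rin1, Cd248 and Cnih2 were too low to test and entered the run on that ground. Rin1 had 7 and 8 reads in empty and 10 and 5 in Wnt5a. Cd248 had 0 and 0 against 7 and 6, Slc29a2 0 and 0 against 31 and 33, and Cnih2 0 and 0 against 25 and 30. The flanks Npas4 (26.5 and 28.8 in empty, 18.1 and 24.6 in Wnt5a) and Sf3b2 (1931 and 1875, 2511 and 2385) had reads in both groups.

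Around Usp4 on chromosome 9, between Bsn and Usp19, the genes are Dag1, Nicn1, Amt, Tcta, Rhoa, Gpx1, Usp4, 1700102P08Rik, Ccdc36, Klhdc8b, Ccdc71 and Lamb2. Of these, Amt, 1700102P08Rik, Ccdc36 and Lamb2 were too low to test. Ccdc36 had 0 and 0 reads in the empty libraries against 6 and 4, and 1700102P08Rik 0 and 0 against 6 and 7. Amt had 0 and 0 against 34 and 31, and Lamb2 3 and 1 against 42 and 13. Rhoa, a GTPase of the actin cytoskeleton, had 17 and 3 reads in the empty libraries against 2186 and 2164, and Gpx1, a glutathione peroxidase, 3 and 0 against 242 and 277. Dag1, next to Bsn, was intermediate, at 54.3 and 45.8 normalised reads in empty and 354 and 327 in Wnt5a. In the flanks, Bsn was 647 and 593 against 690 and 663, and Usp19 810 and 750 against 1018 and 986.

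**Figure D4:**
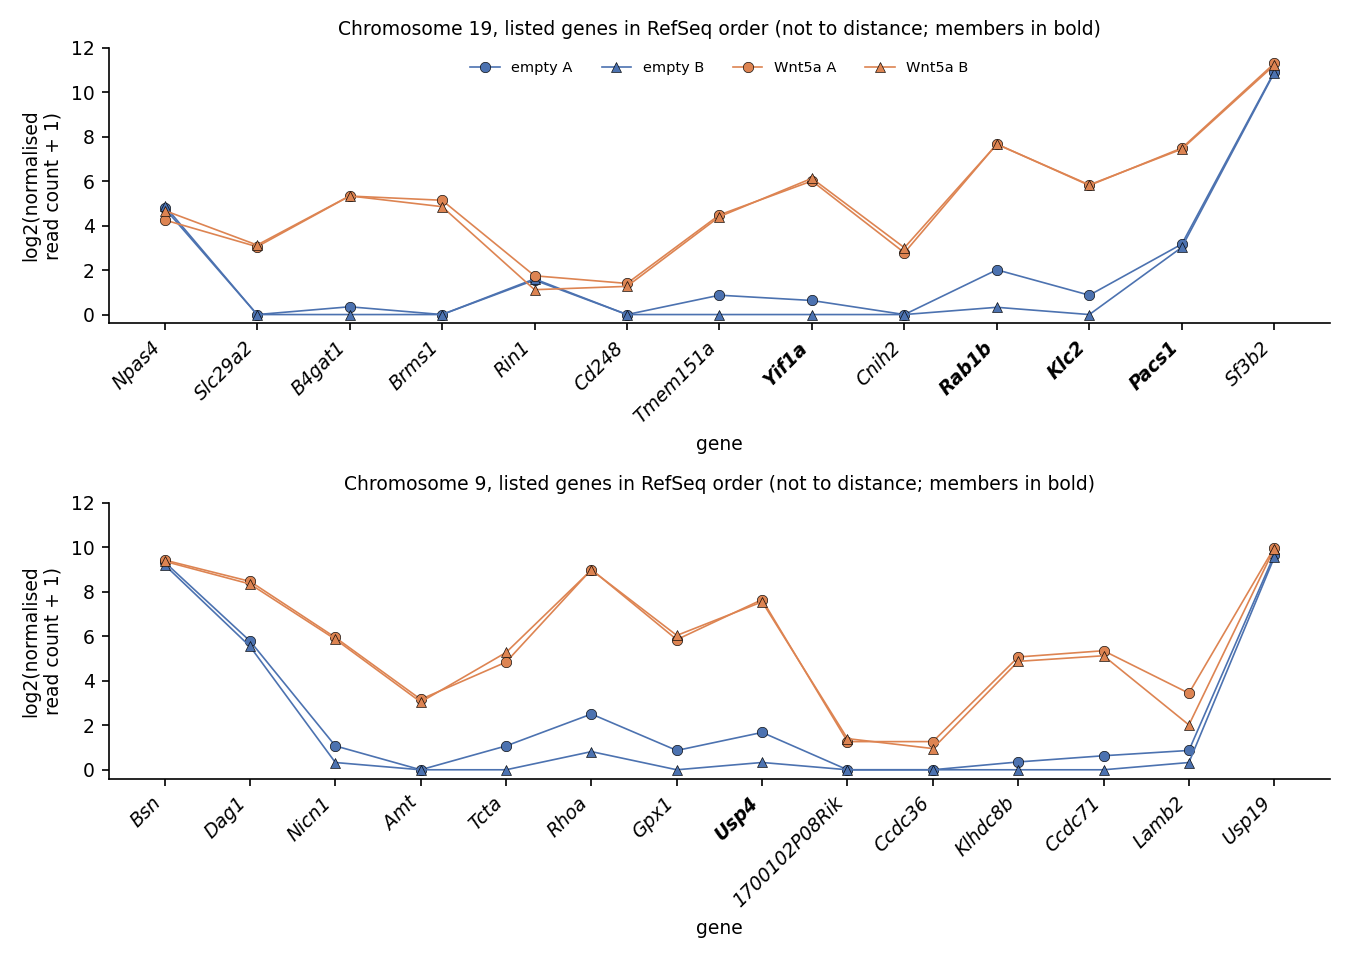
Normalised reads in the 4 libraries for the genes around the chromosome 19 members (top) and around Usp4 (bottom), in RefSeq order and not to distance, as log2(value + 1). Between the flanks, Dag1 and Pacs1 are highest in the empty libraries and the other genes stand at 4.69 or less. Rin1, Cd248, 1700102P08Rik and Ccdc36 are low in both groups, and Slc29a2, Cnih2, Amt and Lamb2 were also too low to test. Npas4, Sf3b2, Bsn and Usp19 have reads in all 4.

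By Euclidean distance to the mean profile of the near-absent genes over the 4 libraries, the nearest genes were Gpx1 (0.251), which lies beside Usp4, and 2 genes on other chromosomes. Prrg3 on the X chromosome (distance 0.406) stood at 3.04 and 0.510 in empty and 115 and 108 in Wnt5a. Sgpp2, a sphingosine phosphate phosphatase on chromosome 1 (distance 0.441), stood at 1.38 and 0.509 in empty and 70.9 and 83.5 in Wnt5a.

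Genes that work with the pairs were read from 9 lists with 140 tested genes, and limma called 2 of them. Stx5a, a Golgi SNARE in the list of Rab1 effectors and tethers, rose from 233 to 334 (log2 difference 0.52, limma adjusted p = 0.0486), and Chml, which escorts Rab proteins for lipid modification, fell from 1681 to 1204 (−0.48, adjusted p = 0.0337). Beside them, 1.38% of all tested genes were called higher in Wnt5a cells and 0.672% lower. Stx5a lies on chromosome 19, whose median difference was 0.36, and Chml on chromosome 1, with −0.17. With edgeR the adjusted p was 0.0507 for Stx5a and 0.0341 for Chml, and with DESeq2 it was 0.0059 and 0.00022. Of the list genes limma called 0 after each chromosome's median was removed, 0 without Wnt5a library A and 0 without Wnt5a library B, so neither call held there.

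The other 8 lists had 0 of 116 tested genes called by limma, with 9 at an unadjusted p under 0.05, 0 by edgeR and 2 by DESeq2, beside the 16.1%, 1.99% and 4.35% of all tested genes given above. Their medians ran from −0.15 to 0.02, beside 0.0026 over all tested genes. COPII coat genes (13 tested, median −0.0017), TRAPP subunits, which activate Rab1 (14 tested, 0.02) and other Rab GTPases (16 tested, −0.0073) sat closest to 0. YIPF proteins and cargo receptors had 19 tested (0.02), PACS partners 19 (−0.04) and DUSP-domain proteases 12 (−0.03). In the kinesin-1 list 3 of 16 genes were higher in Wnt5a cells, beside 6262 of all 12357 tested genes, and the median was −0.09. Its motor subunits Kif5a, Kif5b and Kif5c, named after their values were seen, differed by −0.09, 0.0064 and −0.07 (limma, adjusted p = 0.651, 0.981 and 0.777).

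Pairing A with A and B with B as a replicate block, limma called 15 of the 140 list genes, 5 higher and 10 lower in Wnt5a cells, beside 17.0% of all tested genes (8.68% higher and 8.27% lower). The genes called in this way alone are named after their values were seen. Higher were Sar1b, a COPII GTPase (log2 difference 0.25), Arf1, a GTPase of Golgi coats (0.17), Gosr2, a Golgi SNARE (0.31), and Yipf1 (0.35). Lower were Lman2l, a cargo receptor (−0.23), Ap1s3, an AP-1 subunit (−0.20), Pkd2, a channel and cargo of PACS proteins (−0.27), and Usp48 (−0.20). Sar1b, Arf1 and Gosr2 lie on chromosome 11, with a median difference of 0.17, and Lman2l and Ap1s3 on chromosome 1, with −0.17. Yipf1 and Usp48 lie on chromosome 4 (median 0.0007) and Pkd2 on chromosome 5 (−0.0005). The part of these chromosome medians in the calls with the block was not tested.

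In the kinesin-1 list 4 of 16 genes fell with the block and 0 rose: Arl8a (−0.24), Clstn1 (−0.18), Plekhm2 (−0.28) and Clstn2. Arl8a lies on chromosome 1 (median −0.17), Clstn1 and Plekhm2 on chromosome 4 (0.0007) and Clstn2 on chromosome 9 (−0.02). Clstn2, a calsyntenin cargo adaptor, stood at 2035 and 1495, a log2 difference of −0.45. Its adjusted p was 0.0983 by limma, 0.101 by edgeR, 0.0056 by DESeq2 and 0.0022 by limma with A and B as blocks. In the list of paralogs of the other genes in the runs, limma called 0 of 7 without the block and DESeq2 called 1, Klhdc8a. That gene lies on chromosome 1, whose median was −0.17. Klhdc8a, the paralog of Klhdc8b, stood at 216 in empty and 147 in Wnt5a cells (−0.55; adjusted p by limma 0.0674, by DESeq2 0.0141, and 0.0069 with A and B as blocks). Rhob and Rhoc, paralogs of Rhoa, differed by 0.04 and −0.24 (limma, adjusted p = 0.881 and 0.320), Brms1l by 0.08 (0.761), Ccdc71l by 0.10 (0.744), Gpx4 by −0.17 (0.320) and Tmem151b by −0.15 (0.793).

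**Figure D5:**
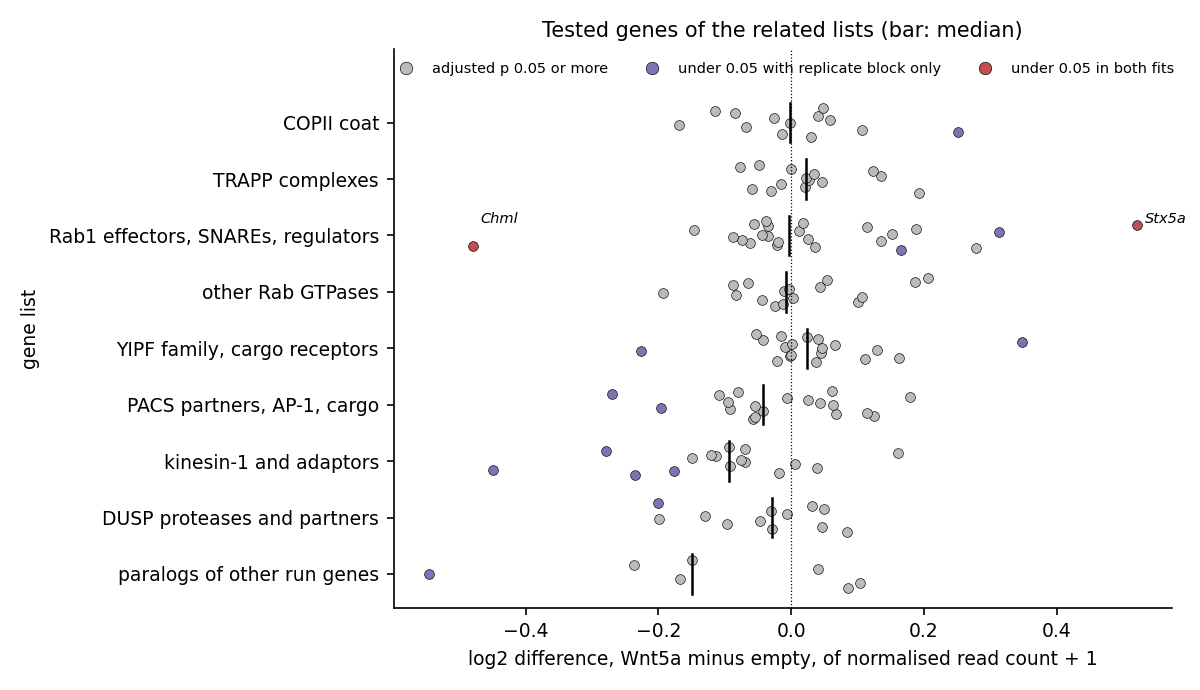
Log2 difference, Wnt5a minus empty, for every tested gene of the 9 lists related to the pairs, a row of points per list with a bar at its median. Red points, Stx5a and Chml, had an adjusted p under 0.05 by limma with and without the replicate block, purple points only with it.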

How the data were processed

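Poly(A) RNA of cultured preSC was measured by RNA sequencing in 16 samples. The submitters' processing notes name TopHat, Bowtie, HTSeq and DESeq2; versions, the genome build and annotation, read length and strand are not given in the sources used here. The deposited values are a signal: read counts that the authors divided by 1 size factor per sample, as the values themselves show, since all were whole multiples of a step (tolerance 0.001). Whole reads were recovered from these steps.

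Samples 1 to 4 and 5 to 8 of each group were averaged as libraries A and B, because the dispersion index was 0.987 to 1.05 in 24 pairs of samples within a set and 5.23 to 5.44 in 32 pairs across sets; 14 of the 24 had a chi-square p under 0.05, so the within-set agreement is close but not exact. No label says what the replicate numbers share. A replicate block is given beside the unblocked fit because the 8 same-numbered pairs of samples correlated at 0.175 to 0.220 in their deviations from the group means; these restate 1 contrast, A minus B, which correlated at 0.44 between the groups over 12357 genes, and 1 of 8 samples correlated best with its own number.

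Genes with a mean value of at least 10 were tested on log2(value + 1), so differences of low genes are understated, with limma 3.58.1 (trend, Benjamini-Hochberg, threshold 0.05) in R 4.3.3. edgeR 4.0.16 and DESeq2 1.42.0 were run on recovered reads. Tests were checked on simulated data. RefSeq GRCm38.p6 matched 17623 of 17655 genes, 382 by synonym, and gave positions; transcripts were GENCODE M21. The build of the files is unknown, so coordinates are those of these references.

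The members and gene lists were chosen with earlier results of these data known. Named genes are the members, their run neighbours, the largest called rise and fall in each list, tested paralogs of the other run genes, and the 3 nearest profiles; other genes, those called with the replicate block alone included, are named after their values were seen.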

Additional observations from a re-analysis of the deposited data

Results flagged for a closer look

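Pacs1 in sample 2 of the Wnt5a group, at 210 normalised reads, stood apart from the other 7 samples of its group. Its gap to the next sample, as a share of the group's range, passed Dixon's 95% critical value for 8 samples. This was 1 of 20 groups of gene and condition tested, and chance flags about 1 in 20.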

How the results depend on the processing

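Over 85 alternative tests of the paralogs, limma, edgeR or DESeq2 called none, and the log2 differences ran from −0.21 to 0.0385. The sign turned in 6 of them, all of small size: Yif1b was 0.0068 without Wnt5a library A, Pacs2 −0.0101 with median centring and −0.0142 without empty library B, and Klc1 −0.0152 with median centring, −0.0150 without empty library A and −0.0307 without Wnt5a library B. Leaving out 1 library at a time gave −0.0694 to −0.0111 for Rab1a, −0.0962 to 0.0068 for Yif1b, −0.0142 to 0.0323 for Pacs2, −0.0307 to 0.0385 for Klc1 and −0.0503 to −0.0033 for Usp15; a library left alone in its group is assumed to vary like the others. The number of genes called, 254, was 146 with no filter, 102 with a minimum of 50, 158 without the trend, 538 with DESeq2, 4377 with all 16 samples taken separately, 2095 with the replicate block, 5606 with both, and 138 to 1098 without 1 library (493 without empty library A, 1098 without empty B, 166 without Wnt5a A and 138 without Wnt5a B). The 2 list genes called became 15 with the replicate block, 59 with the block over 16 samples, 1 with edgeR and 4 with DESeq2. In alternatives added after seeing the data they became 0 with no filter, a minimum of 50, no trend or chromosome medians removed, 1 with median centring or quantile normalization, 42 with 16 samples, and 0 to 6 without 1 library (0 without either Wnt5a library, 2 without empty A, 6 without empty B). The block changed no call of a paralog. Shares of a pair held by the near-absent gene moved with the length used: with the longest transcript they were 12.3%, 16.01%, 12.6%, 1.59% and 37.3% for Rab1, Yif1, Pacs, Klc and Usp4, and without length correction 8.69%, 19.7%, 11.4% and 15.9% for Rab1, Yif1, Pacs and Usp4. The cause of these shifts was not tested, apart from the length itself. Near-absent genes kept their sign in all alternatives, and their size depends on the pseudocount, with 2.65 to 4.20 at a pseudocount of 10. With 2 to 57 reads per near-absent gene in the empty libraries, their exact level there is limited by counting.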

Other observations

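The few reads of the near-absent genes in empty cells were unevenly spread over the 2 empty libraries. As a percent of the Wnt5a library of the same letter, Rab1b was 1.499 in library A and 0.126 in B, Yif1a 0.868 and 0, Klc2 1.51 and 0, and Usp4 1.10 and 0.137, so all 4 were higher in A. These 4 genes had 24 reads in A and 2 in B. Pacs1 was 4.48 and 4.13, nearly equal, and Dag1, on chromosome 9, was 15.3 and 14.0. Over the 13 tested genes of the runs without Pacs1 and Dag1, library A held 59 reads and B 6, 12 of the 13 were higher in A (Brms1 was at 0 in both), and 9 were at 0 in B. Rhoa, the most abundant of them, was 0.913 in A and 0.150 in B. These genes are neighbours in the runs, and how other genes with so few reads divide between A and B was not counted.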
